A study of Mus musculus with 72 samples.

Results

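The region described here is the imprinted start region that Snrpn shares with Snurf, on mouse chromosome 7. It was measured as the 15 CpGs that the deposited table lists under the feature name Snrpn, out of 224 CpGs in all, with 15 named regions. All rows of that name were taken, on both parental alleles. IMPLICON, the assay used, is bisulfite amplicon sequencing of imprinted regions in which strain variants assign each read to a parental genome. DNA came from 8 female mice, the F1 of BL6 and CAST parents crossed in both directions. For each mouse, 1 library from lung and 1 from each of 5 brain areas were used: cerebellum, hippocampus, hypothalamus, nucleus accumbens and prefrontal cortex. Old mice 1 and 2 were 101 weeks old with a BL6 mother and a CAST father, and old mice 3 and 4 were 103 weeks old with a CAST mother and a BL6 father. Young mice 5 and 6 were 8 weeks old with a CAST mother and a BL6 father, and young mice 7 and 8 were 9 weeks old with a BL6 mother and a CAST father. No mouse carried a mutation or a treatment according to the labels, and each tissue piece holds a mixture of cell types. By its title, the study was about how stable imprinting is in the brain of aged mice.

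Snrpn encodes SmN, a protein of the spliceosome that is abundant in neurons, and Snurf is an upstream reading frame on the same transcript. The region is a textbook imprinting control element: its DNA is methylated in the oocyte, so that the maternal copy is normally methylated and silent and the paternal copy unmethylated and transcribed. The paternal transcript continues into a long non-coding RNA, Snhg14, that hosts small nucleolar RNAs and silences the paternal copy of Ube3a, a ubiquitin ligase, in neurons. In humans, loss of the paternal or maternal contribution of the matching locus underlies Prader-Willi and Angelman syndromes.

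In the RefSeq table of build GRCm38.p6, Snrpn spans chr7:59982495-60450177 and Snurf chr7:59982495-60005199, and both are transcribed from the minus strand. The 15 CpGs lie between positions 60005043 and 60005284, a span of 241 bases around the Snurf start. Of them 12 lie past the start, inside the transcribed region, and 3 have their cytosine upstream of it. The stretch running into the start is shown because it holds the upstream measured CpGs, which are in capitals (chr7:60005199-60005319, minus strand, RefSeq sequence):
Upstream of Snurf: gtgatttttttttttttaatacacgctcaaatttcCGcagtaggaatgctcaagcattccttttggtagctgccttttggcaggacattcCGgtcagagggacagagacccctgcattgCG
Just inside the transcript, 2 further measured CpGs, again in capitals, frame a palindrome (chr7:60005150-60005169, minus strand):
Motif site: ctgggaCGcatgCGtaggga
This site holds GCATGCG, the core letters of the consensus of the transcription factor NRF1, on both strands with the matches overlapping. The same 7 letters, on either strand, occurred in 1177 of 32851 RefSeq start windows of 300 bases (3.58%), and in the 4 windows that RefSeq lists for Snrpn. The window at the Snurf start held 7 CpGs, the same as the median over all windows, while the other Snrpn windows, far upstream, held 2, 3 and 4. The match is a description of the letters, and binding was not measured.

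Read depth was low. Libraries held 376 to 461238 calls over all regions (median 62773), and Snrpn took 1.43% of all calls, 52445 in total. Of 96 combinations of library and allele, 92 had at least 100 calls summed over the 15 CpGs and were used. The other 4 were both alleles of mouse 3 in hippocampus, with no call, the maternal allele of mouse 4 in hippocampus (37.3% from 5 reads) and the paternal allele of mouse 5 in nucleus accumbens (21.3% from 5 reads). Since the CpGs of an amplicon are read together, the depth behind a level is the number of reads and not the number of calls. The best covered CpG, taken as that number, had a median of 30.0 reads in the combinations used and at least 8. Methylation levels below are methylated calls over all calls, in percent, and intervals on single levels are exact 95% binomial (Clopper-Pearson) intervals on reads that cover counting error only.

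With genome 1 of the table taken as BL6, the maternal allele was methylated more than the paternal allele in 45 of 45 libraries with both values. For averages over tissues, each value was centred on the mean of its tissue before averaging within a mouse, so that a missing tissue would not shift that mouse, and the mean of the tissue means was added back. The maternal level so averaged was 69.3% ± 10.2 (SD, n = 8 mice) and the paternal level 17.1% ± 3.45 (SD, n = 8). The within-library difference was 51.6 percentage points (exact two-sided sign-flip test over 8 mice, p = 0.00781, the smallest that 8 mice allow). On average neither allele was at the extreme of the scale. Over libraries, maternal levels ran from 37.1% to 94.3% and paternal levels from 1.33% to 37.8%. The lowest of these, the paternal allele in lung of mouse 8, rested on 10 reads (interval 0 to 30.8). The distance between the alleles within a library ran from 2.48 to 85.9 percentage points.

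By mouse, the difference was 58.7, 59.0, 60.2 and 40.5 percentage points in old mice 1 to 4, and 58.1, 58.2, 43.7 and 34.4 points in young mice 5 to 8. Mice 4, 7 and 8 stood below the other 5, and mice 4 and 8 had the lowest maternal levels. These averaged 58.6% and 51.5%, against 64.7% to 81.1% in the other mice, while paternal levels ran from 12.3% to 22.1% over all mice. Mouse 8 also had the lowest median library size, 16170 calls against 55564 to 82930 calls in the others. The part of depth in its level was not tested.

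**Figure D1:**
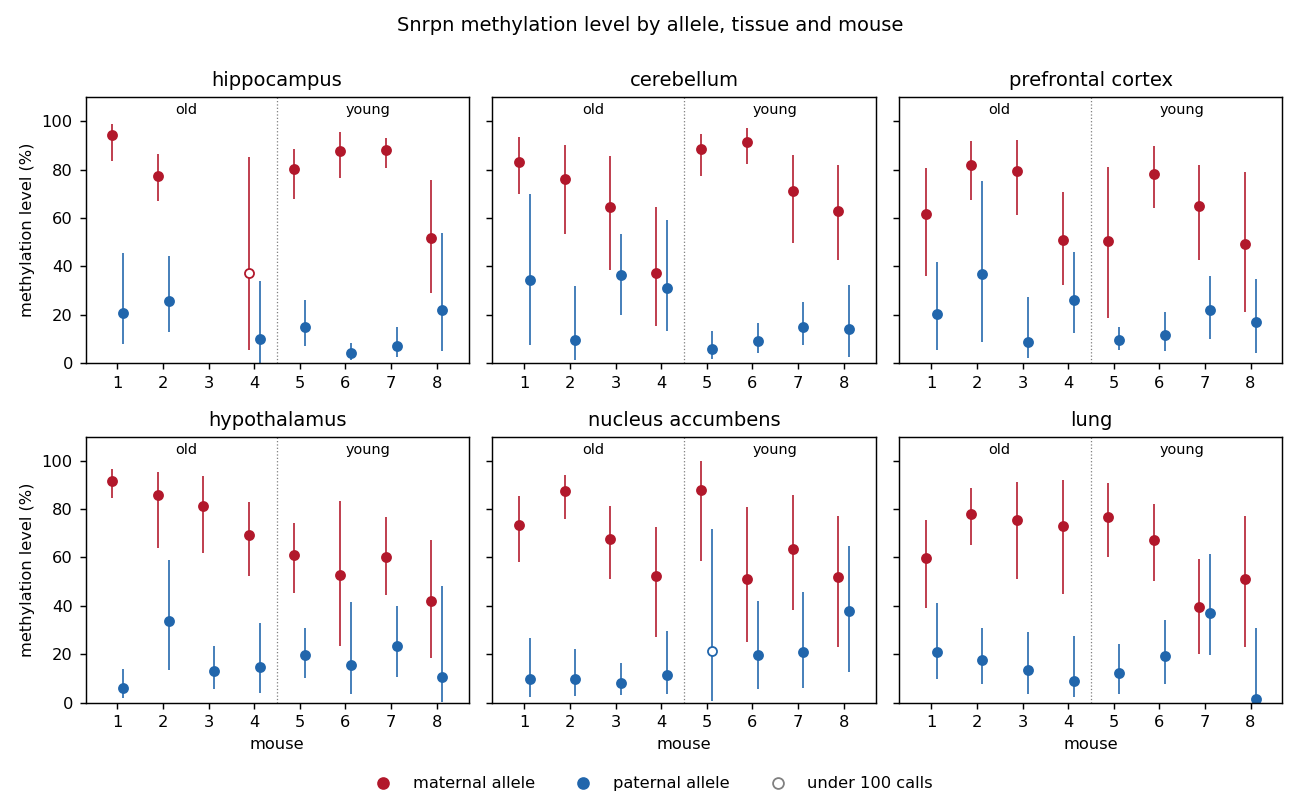
Methylation level of the Snrpn region in percent (vertical axis) for each of 8 mice (horizontal axis) in 6 tissues, with maternal alleles in red and paternal alleles in blue. Bars are exact 95% counting intervals on reads, open points had under 100 calls and are not used, and red points lie above blue ones in all 45 libraries with both values, most narrowly in lung of mouse 7.

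In every tissue the maternal excess passed the test. In hippocampus it was 64.2 points (6 of 6 mice, adjusted exact sign-flip p = 0.0312). Cerebellum gave 52.4 points, hypothalamus 51.0, lung 48.7 and prefrontal cortex 45.6, each with 8 of 8 mice in that direction and an adjusted exact p = 0.0117. Nucleus accumbens gave 47.1 points with 7 of 7 mice (adjusted exact p = 0.0187). These p-values are at or near the smallest that 6 to 8 mice allow, so they do not rank the tissues. At a minimum of 200 calls the adjusted exact p was 0.0625 in hippocampus and in prefrontal cortex, where fewer mice remained.

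In 2 libraries the alleles were nearly level. In lung of mouse 7 the maternal level was 39.7% (interval 20.2 to 59.4) and the paternal level 37.2% (19.7 to 61.5). In cerebellum of mouse 4 the levels were 37.1% (15.2 to 64.6) and 31.2% (13.3 to 59.0), from 16 and 18 reads. The intervals overlap in both, and in hypothalamus of mouse 4 they did not (69.2%, 52.4 to 83.0, and 14.8%, 4.03 to 32.7).

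Along the amplicon the level changed little next to the distance between the alleles. Pooled over tissues within a mouse, the maternal level of the 15 CpGs ran from 67.7% to 74.2%, with an SD over mice of 10.5 to 12.0. The lowest maternal level was at the CpG farthest into the transcript (67.7% ± 11.0, SD, n = 8 mice), and the highest lay 12 bases past the Snurf start (74.2% ± 11.2). Within a mouse the CpG at 60005187 was above the one at 60005043 in 8 of 8 mice, by 1.29 to 16.1 points. Paternal levels reached 20.2% at the CpG at 60005112 and at most 16.9% elsewhere, at 60005053. That CpG was above the outermost upstream one, at 60005284 and with the lowest paternal level, in 8 of 8 mice by 2.24 to 4.80 points. These pairs were chosen as the highest and lowest levels, so the differences are given with no test.

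Within a library the CpGs mostly lay closer together than independent calls would. The SD over the 15 CpGs was below the SD that independent calls would give in 88 of 92 combinations, with a median ratio of 0.457. The other 4 had ratios above 1. Of these, the paternal allele of mouse 6 in hippocampus had 2 to 15 methylated calls per CpG (ratio 1.70), the maternal allele of mouse 6 in cerebellum had 46 to 60 (1.60), and the paternal allele of mouse 5 in hippocampus had 6 to 15 (1.04). The largest ratio, 10.0, came from the paternal allele of mouse 5 in prefrontal cortex. There 94.3% of calls were methylated at position 60005112, against 3.14% to 4.38% at the other 14 CpGs. The same CpG on the paternal allele was between 2.24% and 39.1% in the 34 other libraries with at least 20 calls, and between 8.22% and 20.6% in the other tissues of mouse 5. That library also had 94.2% of its Snrpn reads on the BL6 genome. Without this CpG its paternal level was 3.56% in place of 9.59%. The library also lay outside the range of the other prefrontal cortex libraries at other regions. Its level was 2.65% at Gnas maternal, 62.8% at Plagl1 paternal, 41.6% at Commd1 paternal, and 46.0% maternal and 30.6% paternal at H13. At Impact and Mest its maternal levels, 89.8% and 47.7%, lay within that range. It stayed in the main comparisons and was left out as an alternative.

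**Figure D2:**
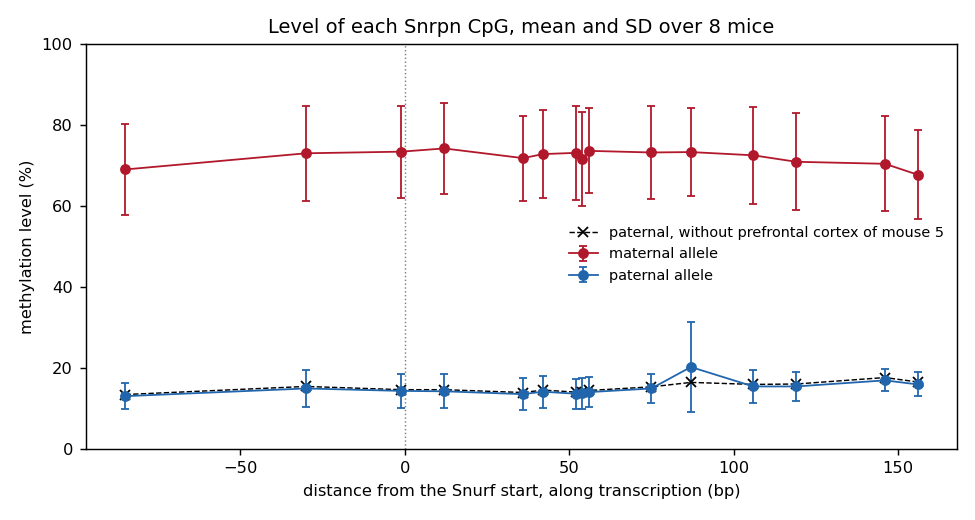
Level of each CpG in percent (vertical axis) by its distance from the Snurf start in bases along transcription (horizontal axis), as the mean and SD over 8 mice with all tissues of a mouse pooled. The maternal line stays between 67.7% and 74.2%, and the single paternal rise to 20.2% goes when the prefrontal cortex library of mouse 5 is left out (crosses).

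Tissues next to each other in the order of the means were not told apart on either allele. Mean maternal levels fell from hippocampus (79.9% ± 15.1, SD, n = 6) through cerebellum (71.9% ± 17.5, n = 8), hypothalamus (68.1% ± 17.2, n = 8), nucleus accumbens (66.9% ± 15.1, n = 8) and lung (65.1% ± 13.9, n = 8) to prefrontal cortex (64.6% ± 13.7, n = 8). Mean paternal levels lay closer together, from 14.9% ± 8.16 in hippocampus (n = 7) to 19.5% ± 12.4 in cerebellum (n = 8). These means rest on different mice, since hippocampus lacks maternal levels of mice 3 and 4. Within the 6 mice with both, hippocampus was 1.06 points above cerebellum on the maternal allele. On the paternal allele the within-mouse difference had the opposite sign to the order of the means for hypothalamus minus nucleus accumbens (-0.154 points) and for nucleus accumbens minus lung (-0.0837 points). No pair of neighbours in either order differed beyond the spread within mice (adjusted exact sign-flip p of 0.969 or more). The neighbours were taken from the order of these same means, so they are close by construction and high p-values say little. Of the pairs farther apart, only those with lung were tested. A p that misses the threshold does not show that the tissues are alike.

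Lung served as the organ outside the brain. Each area was set against it in limma with covariates for age and cross, and no term for the mouse. At Snrpn 0 of 10 such comparisons passed and 1 had an unadjusted p under 0.05, with the same counts in edgeR. Over all region-alleles, a region-allele being a region on 1 parental allele, 11.8% passed in limma and 19.1% had such an unadjusted p. The largest was the maternal allele in hippocampus, 19.7 points above lung (95% interval 6.07 to 33.3, adjusted p = 0.0953 in limma). Within mice it was higher in 5 of 6, by 17.9 points (exact sign-flip p = 0.0625, adjusted 0.625). Without mice 4 and 8, a pair picked for their low maternal levels, it was 21.8 points and passed (adjusted p = 0.0395 in limma). Cerebellum was 6.77 points above lung on the maternal allele. As the mean over CpGs with 20 or more calls, which leaves fewer libraries, that difference was 18.7 points and passed (adjusted p = 0.0123 in limma). Within mice the same setting gave 17.8 points and did not pass (adjusted exact sign-flip p = 0.417). For the areas other than hippocampus the maternal intervals ran from 13.8 points below lung in prefrontal cortex to 24.0 above in cerebellum. On the paternal allele the intervals of all 5 areas ran from 12.0 points below lung to 15.3 above.

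Old and young mice did not differ at Snrpn beyond the adjusted threshold on either allele in any tissue. Averaged over tissues, the maternal level was 73.2% ± 10.0 in old mice and 65.4% ± 10.1 in young mice (SD, n = 4 each), so that old mice were 7.77 points higher (p = 0.314 in the exact two-sided permutation test, 0.457 adjusted). The paternal levels were 18.4% ± 2.83 and 15.9% ± 3.96, so that old mice were 2.45 points higher (p = 0.400 in the exact permutation test, 0.457 adjusted). The distance between the alleles was 5.99 points larger in old mice (exact permutation p = 0.457). The maternal difference was not the same in both crosses: old mice were 21.1 points higher among daughters of BL6 mothers and 5.60 points lower among daughters of CAST mothers, with 2 mice each, and this contrast was not tested.

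Tissue by tissue, limma called 0 of 12 tissue and allele combinations at Snrpn after adjustment over all region-alleles, against a background of 0.769% (1 of 130 called). At an unadjusted p under 0.05 it gave 3 of 12, against 11.5% of all region-alleles, and edgeR gave the same counts, 0 and 3, against 1.54% and 13.8%. The 3 were the maternal allele in hypothalamus, the paternal allele in cerebellum and the paternal allele in nucleus accumbens. Old and young mice did not overlap in 2 of 12 combinations at Snrpn, where 10.0% of all region-alleles showed such a split.

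In hypothalamus the maternal level was 91.7%, 85.8%, 81.2% and 69.2% in old mice 1 to 4. It was 61.2%, 52.7%, 60.4% and 42.1% in young mice 5 to 8. Every old mouse lay above every young mouse, while counting intervals of neighbouring mice overlapped (52.4 to 83.0 for mouse 4, 45.3 to 74.2 for mouse 5). The difference was 27.9 points (95% interval 12.3 to 43.4, limma p = 0.00466, adjusted p = 0.0895), and the exact permutation test gave p = 0.0286, the smallest that 4 against 4 mice allow. The edgeR test on methylated and unmethylated calls gave an adjusted p of 0.0530, and limma on the logit scale 0.0470. Leaving out 1 mouse at a time gave 22.3 to 32.2 points, with adjusted limma p-values of 0.0645 to 0.301. Without mice 4 and 8, the same pair picked by their levels, the difference was 26.3 points with an adjusted p of 0.0271 in limma. Since the pair was picked by the outcome, that value is no support for the difference. The sign was the same within each cross, 37.5 points with BL6 mothers and 18.2 points with CAST mothers.

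On the paternal allele of the same libraries the groups overlapped. The level was 5.86%, 33.8%, 12.9% and 14.8% in old mice and 19.7%, 15.6%, 23.4% and 10.4% in young mice, a difference of -0.43 points (95% interval -16.5 to 15.6). Leaving out 1 mouse at a time gave values on both sides of 0. They ran from -6.70 points without old mouse 2, at 33.8% from 18 reads, to 4.49 points without old mouse 1. Single CpGs were tested with at least 20 calls, which left out young mice 6 and 8 in hypothalamus, with 11 and 17 reads. In the other mice the maternal difference there ran from 13.3 to 24.1 points, with old mice higher at all 15 CpGs. On the paternal allele, where mice 2, 6 and 8 were below 20 calls, it ran from -13.4 to -7.19 points, with old mice lower at all 15 CpGs. An unadjusted limma p under 0.05 was seen at 14 maternal and 8 paternal CpGs. None passed after adjustment (the smallest adjusted limma p was 0.152 for maternal and 0.164 for paternal CpGs). Over the 5 tissues with enough calls, 0 of 150 Snrpn tests of a single CpG and allele passed and 45 had an unadjusted p under 0.05, against 0.0665% and 8.84% of all such tests. The CpGs share their reads and are not separate evidence. Of the other maternally methylated regions, Mest, an imprinted gene of the hydrolase family, had a maternal difference of similar size in hypothalamus (83.5% in old and 53.2% in young mice, 30.2 points, adjusted p = 0.0895 in limma). The corresponding differences were 11.7 points at Plagl1, 8.29 at Impact, 7.06 at H13, 4.11 at Gnas and 0.564 at Commd1, none of them past the threshold. The estimate was thus higher in old mice at Snrpn and at all 6 regions compared with it. These regions were read in the same libraries and are not separate evidence. Young mouse 8 had the lowest maternal level in hypothalamus at Snrpn, Mest (32.6%), H13 (70.5%) and Plagl1 (52.6%), but not at Impact, Gnas or Commd1. Its part in the shared direction was not tested.

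**Figure D3:**
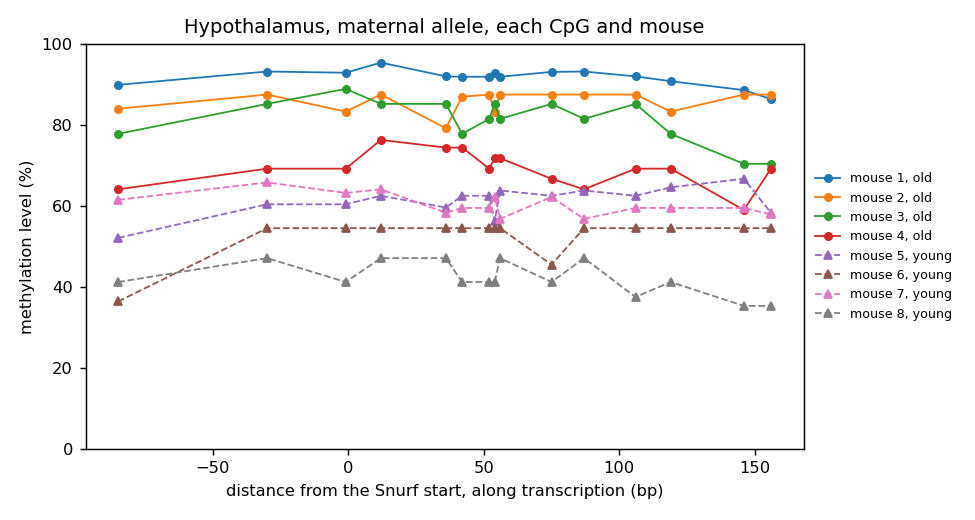
Maternal level of each CpG in hypothalamus in percent (vertical axis) by distance from the Snurf start in bases (horizontal axis), 1 line per mouse, with old mice as solid lines and circles and young mice as dashed lines and triangles. The summed levels range from 91.7% in old mouse 1 to 42.1% in young mouse 8. The lines of these mice, the highest and the lowest by summed level, stay apart at all 15 CpGs. The age groups are not separate at every CpG: at 60005053 old mouse 4 lies below young mice 5 and 7.

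In nucleus accumbens the paternal level was 9.64%, 9.77%, 8.20% and 11.6% in old mice 1 to 4. In the young mice it was 19.8%, 21.1% and 37.8% in mice 6 to 8, from 14 to 21 reads each. Young mice lay above old mice without overlap, with a difference of -15.8 points, old minus young (95% interval -28.0 to -3.58, adjusted p = 0.360 in limma). Without young mouse 8 it was -10.6 points and passed (adjusted p = 0.0293 in limma), and without mice 4 and 8 it was -11.5 points (adjusted p = 0.0109 in limma). Mouse 8 had the highest young level and mice 4 and 8 were picked by their levels, so neither pass is support for the difference. Either removal left only the minimum of 2 young mice. The difference ran from -19.7 to -10.6 points over all single removals, with adjusted limma p-values up to 0.746. In cerebellum the direction was the opposite: paternal levels were 34.3%, 9.67%, 36.4% and 31.2% in old mice and 5.70%, 9.14%, 15.1% and 14.2% in young mice. Old mouse 2 lay among the young mice, and the difference was 16.9 points (95% interval 0.821 to 32.9, adjusted p = 0.202 in limma). Without old mouse 2 it was 23.7 points and passed (adjusted p = 0.00355 in limma). That removal takes out the overlapping mouse, so its pass is no support for the difference. Over all single removals the cerebellum difference ran from 13.8 to 23.7 points, with adjusted limma p-values up to 0.432.

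**Figure D4:**
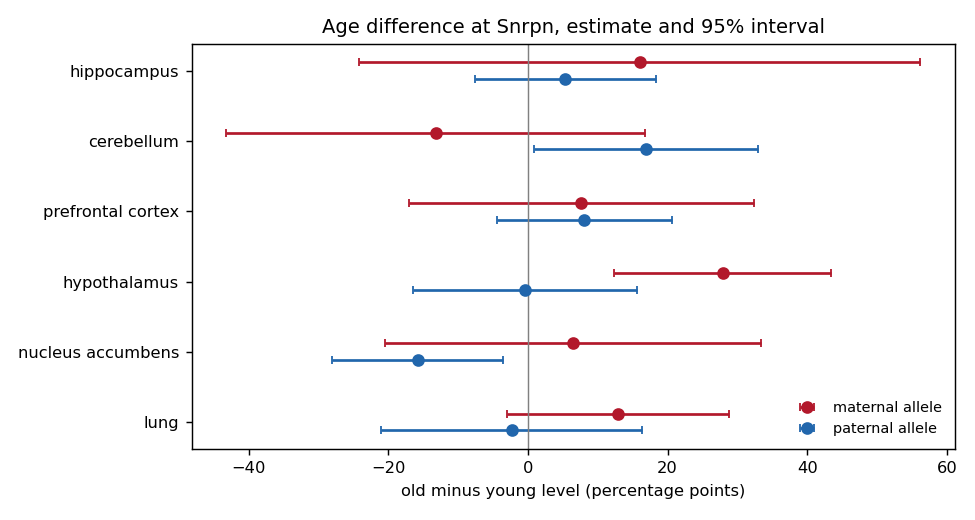
Old minus young methylation level in percentage points (horizontal axis) by tissue (vertical axis), as the limma estimate with its 95% interval, for maternal alleles in red and paternal alleles in blue. The largest estimate is the maternal allele in hypothalamus at 27.9 points, and estimates fall on both sides of 0.

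Age differences in pairs of tissues were compared within mice, a test added after these values had been seen. Of 30 comparisons at Snrpn, 0 passed after adjustment over all 15 pairs and all region-alleles, where 0.312% of the 320 tested did. An unadjusted limma p under 0.05 was seen in 5 of 30, against 7.81%. The largest was on the maternal allele, where cerebellum minus hypothalamus was between -32.1 and -8.41 points in old mice and between 10.5 and 38.8 points in young mice. That is a difference of -41.0 points (95% interval -60.0 to -22.1, adjusted p = 0.159 in limma). Adjusted within that pair of tissues alone the p was 0.0361, and by that rule 1.56% of the tests passed.

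The reciprocal crosses allow parent and strain to be set apart in part. Paternal levels averaged over tissues were 18.6%, 22.1%, 21.0% and 17.1% in mice 1, 2, 7 and 8, whose paternal genome is CAST. They were 15.5%, 17.1%, 12.3% and 13.2% in mice 3 to 6, whose paternal genome is BL6. The first group was 5.17 points higher (exact permutation p = 0.0286, the smallest that 4 against 4 mice allow, adjusted 0.0571 over both alleles), and its difference was 4.07 points among old and 6.27 points among young mice. At a minimum of 500 calls it was -0.477 points. The maternal allele differed by -1.33 points between crosses (exact permutation p = 0.886), as 12.0 points among old and -14.7 points among young mice. Mother's strain and the strain of the allele cannot be told apart in this contrast. Per tissue, limma called 0 of 12 cross differences at Snrpn and 0% of all region-alleles, with 1 of 12 at an unadjusted p under 0.05 against 4.62% of all.

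Coverage of the amplicon itself also differed. The BL6 genome gave 58.9% of Snrpn calls and most of the reads in 36 of 47 libraries. The share per mouse ran from 47.4% to 63.7% and did not differ detectably between crosses (-6.50 points with BL6 mothers, exact permutation p = 0.171). Snrpn also took a smaller share of the library in old mice in 3 brain areas, short of the adjusted threshold. In cerebellum it was 0.622%, 1.94%, 0.164% and 0.501% of library calls in old mice and 2.53%, 2.35%, 2.86% and 3.89% in young mice. Old and young mice did not overlap there, nor in hippocampus or prefrontal cortex, with differences of -2.10, -2.19 and -2.05 points (each with an exact permutation p = 0.0286 and an adjusted p = 0.0571). This share was not computed for the other regions, so the splits cannot be called particular to Snrpn. The hippocampus library of old mouse 3 held 376 calls in all and none at Snrpn, and entered as 0%. The other old mice had 1.35%, 1.00% and 1.04% there, below the 2.22% to 4.20% of the young mice. In hypothalamus the share differed by 0.0391 points (exact permutation p = 0.971).

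Among the regions of the table that are methylated on the maternal allele, Snrpn was one of the least separated. Mest and Gnas were the nearest to it by the mean absolute distance of the allelic difference, 19.5 points over 41 libraries and 20.9 points over 45. The mean difference between the alleles was 51.1 ± 10.6 points at Snrpn (SD, n = 8 mice, averaged over tissues without centring), 52.4 ± 22.9 at Mest, 67.3 ± 7.02 at Gnas and 81.1 ± 9.33 at Commd1. Median read numbers were 30.0 at Snrpn, 58.0 at Mest, 318 at Gnas and 210 at Commd1, so Snrpn was the shallowest of them.

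Within mice the maternal level of Snrpn was lower than that of Commd1 by 20.6 points, and below it in 8 of 8 mice (exact sign-flip p = 0.00781, adjusted 0.0234 over 12 comparisons). It was also lower than the maternal levels of H13, Impact, Plagl1 and Gnas, by 15.8, 14.2, 16.3 and 10.9 points, with adjusted exact p-values of 0.0234, 0.0234, 0.0312 and 0.0402. Against Mest the difference was -2.72 points (exact sign-flip p = 0.562). The paternal level of Snrpn was higher than that of Gnas by 4.90 points in 8 of 8 mice (adjusted exact p = 0.0234), of H13 by 7.15 points (0.0312) and of Commd1 by 8.50 points (0.0469). The paternal differences from Impact, 7.84 points, Plagl1, 8.77 points, and Mest, -2.13 points, did not pass. When mice were left out 1 at a time, the calls against Plagl1 and Gnas on the maternal allele, and against H13 and Commd1 on the paternal allele, were lost for 6 or 7 of the 8 mice, at values of -19.5 to -13.7, -13.1 to -9.02, 6.42 to 8.27 and 7.14 to 10.3 points. The part of depth, or of primers, in these differences was not tested.

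**Figure D5:**
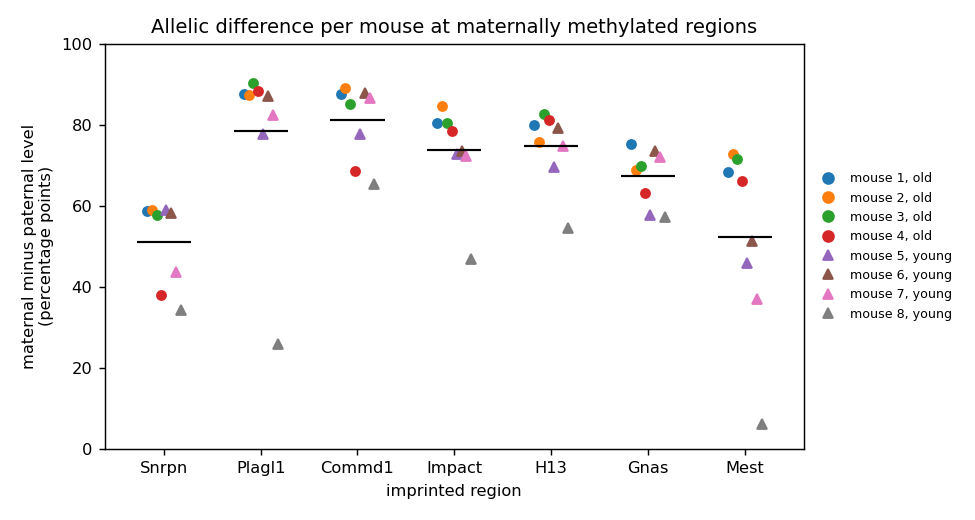
Maternal minus paternal level in percentage points (vertical axis) at Snrpn and 6 other maternally methylated regions (horizontal axis), 1 point per mouse averaged over tissues without centring, with old mice as circles, young mice as triangles and the mean as a line. Mouse 8 is the lowest mouse at all 7 regions, at 34.4 points for Snrpn and 6.02 points for Mest, while mouse 4 is second lowest at Snrpn and at Commd1.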

How the data were processed

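The authors' deposited table gives, per CpG, library and genome, the percent methylation and, in a second block, the count of calls behind it, with no further normalization. Percent times calls gives methylated calls that are whole to within 0.000266. The submitters' processing notes name Bismark 0.14.4, Trim Galore 0.6.6, bcl2fastq 2.20 and the build GRCm38. The splitting of reads by genome and any read filter are not described there. Per the labels' protocols, products of separate PCRs were pooled and barcoded in a second PCR. No molecular identifier is mentioned, so reads may be copies of 1 molecule. The labels give 72 samples, of which 48 have columns in the table. The other 24 were not used here. The labels' protocol text gives a range for the old mice that begins above 101 weeks.

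BL6 was assumed to be genome 1, since no label says so, and maternal and paternal follow from it and the cross. Were genome 1 CAST, maternal and paternal would swap in every result. Methylated calls and calls were summed over the CpGs of a region, allele and library, and sums of at least 100 calls were kept. No 2 libraries held identical calls. The limma 3.58.1 test (R 4.3.3) on percent covered all region-alleles of a tissue with values in at least 2 old and 2 young mice (3 mice per tissue against lung), with a cross term, two-sided tests and Benjamini-Hochberg adjustment, and a threshold of 0.05. The quasi-likelihood test of edgeR 4.0.16 on calls of both kinds and the logit scale (offset 0.5) were alternatives, beside call minimums of 50, 200 and 500, trimmed CpGs and left-out mice. Values per mouse were compared with exact permutation or sign-flip tests. The tests were checked on simulated data. For limma and edgeR the simulated spread was capped below that of Snrpn maternal levels, and libraries were drawn independently. That check therefore does not cover the spread at Snrpn or the pairing of tissues by mouse. Labels give 1 mouse number over all tissues, so tissues are paired by animal. Deviations of the same mouse correlated between tissues at -0.0503 to 0.627 (median 0.240, 15 pairs, over region-alleles).

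Snrpn was the only member. It, the 6 regions compared with it and the tests were chosen with earlier results of these data known. The other regions named are the 2 with the nearest allelic difference and those compared with Snrpn. CpGs were named where a level was highest or lowest.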

Additional observations from a re-analysis of the deposited data

Results flagged for a closer look

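The distance between the alleles averaged over tissues was 40.5 percentage points in old mouse 4, against 58.7, 59.0 and 60.2 points in old mice 1, 2 and 3. Without centring on tissue means the values were 37.9 points in mouse 4 and 58.7, 59.0 and 57.7 points in the others. Mouse 4 was set apart because its gap to the nearest old mouse took up 0.923 of the whole range of the group, more than the 95% critical value of Dixon's test for 4 samples. Of 27 groups of 4 examined at Snrpn this was the only 1 set apart, and chance sets apart about 1 in 20.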

How the results depend on the processing

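The 68 Snrpn results were recomputed under 1061 alternative values, of which 892 kept the direction and the side of the threshold. The maternal excess kept its direction under every alternative, and the maternal age difference in hypothalamus passed the adjusted threshold under 2 of them, the logit scale and the removal of mice 4 and 8. Values below are percentage points unless another scale is named, and the causes of the changes were not tested, beyond the fewer mice that stricter minimums and left-out mice leave for an exact test. Depth limits the result: the median level rests on 30.0 reads, and sign changes fell on differences that were not called.

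With 50 calls as the minimum, the sign turned for BL6 minus CAST mother over tissues (maternal 0.248), area minus lung within mice (nucleus accumbens paternal 1.07) and old minus young (hippocampus maternal -9.03). Under a 50-call minimum, a call was gained for Snrpn minus another region (Impact paternal 8.11). At a minimum of 500 calls, the sign turned for BL6 minus CAST mother over tissues (maternal 5.28, paternal -0.477), area minus lung within mice (cerebellum paternal -8.26, prefrontal cortex maternal 7.33, prefrontal cortex paternal -5.15), Snrpn minus another region (Mest paternal 3.88), old minus young (hippocampus maternal -2.39) and area minus lung in limma (prefrontal cortex paternal -5.15). With 500 calls as the minimum, the call was lost for maternal minus paternal (cerebellum 82.5, hippocampus 70.5, hypothalamus 54.8, lung 54.4, nucleus accumbens 68.5, prefrontal cortex 66.6) and Snrpn minus another region (Commd1 paternal 8.16, Gnas paternal 3.44, H13 paternal 4.78). With calls summed over all tissues of a mouse, the sign turned for BL6 minus CAST mother over tissues (maternal 0.263). Under a 200-call minimum, the sign turned for area minus lung within mice (cerebellum paternal -0.171, hypothalamus paternal -0.457, prefrontal cortex maternal 3.92, prefrontal cortex paternal -2.29), old minus young over tissues (paternal -0.334), old minus young (prefrontal cortex maternal -3.06) and area minus lung in limma (cerebellum paternal -0.614, hypothalamus paternal -0.457, nucleus accumbens maternal -0.451, nucleus accumbens paternal -2.93, prefrontal cortex maternal 3.27, prefrontal cortex paternal -2.32). At a minimum of 200 calls, the call was lost for maternal minus paternal (hippocampus 71.1, prefrontal cortex 49.2). With 200 calls as the minimum, a call was gained for Snrpn minus another region (Impact paternal 6.74, Plagl1 paternal 11.3). With the mean over CpGs with 20 or more calls, the sign turned for area minus lung within mice (cerebellum paternal -4.70, hypothalamus paternal -3.23, prefrontal cortex maternal 10.7, prefrontal cortex paternal -2.30), old minus young (cerebellum maternal 12.7, hippocampus maternal -2.38, prefrontal cortex maternal -0.980) and area minus lung in limma (cerebellum paternal -3.60, hypothalamus paternal -2.70, nucleus accumbens maternal -1.39, nucleus accumbens paternal -4.03, prefrontal cortex maternal 3.67, prefrontal cortex paternal -2.32). With the mean over CpGs with 20 or more calls, the call was lost for maternal minus paternal (cerebellum 67.2, hippocampus 71.1, hypothalamus 57.4, lung 46.1, nucleus accumbens 60.4, prefrontal cortex 50.9). With the mean over CpGs with 20 or more calls, a call was gained for Snrpn minus another region (Plagl1 paternal 10.3) and area minus lung in limma (cerebellum maternal 18.7). Without the prefrontal cortex library of mouse 5, the sign turned for area minus lung within mice (prefrontal cortex maternal 3.14) and area minus lung in limma (prefrontal cortex maternal 1.65). Without the CpG with the highest paternal level, the call was lost for Snrpn minus another region (Commd1 paternal 8.27). Without the first and last CpG, a call was gained for Snrpn minus another region (Impact paternal 8.32). On the logit scale (log2 odds), a call was gained for old minus young (hypothalamus maternal 2.09). On the logit scale (log2 odds), the sign turned for old minus young (lung paternal 0.346). Mice 4 and 8 were left out together after the data had been seen, picked by their low maternal level and so by the outcome. Without them, calls were gained for old minus young (hypothalamus maternal 26.3, nucleus accumbens paternal -11.5) and area minus lung in limma (hippocampus maternal 21.8). In the same setting calls were lost for maternal minus paternal (hippocampus 71.1, nucleus accumbens 55.0) and Snrpn minus another region (Commd1 maternal -18.4 and paternal 10.5, Gnas maternal -7.08 and paternal 6.01, H13 maternal -12.4 and paternal 7.86, Impact maternal -11.4, Plagl1 maternal -17.0). The sign turned there for BL6 minus CAST mother over tissues (maternal 0.519), area minus lung within mice (cerebellum paternal -1.70, hypothalamus paternal -1.55, prefrontal cortex maternal 3.28 and paternal -1.99), the same 4 in limma (-1.70, -1.55, 3.28, -1.99) with nucleus accumbens paternal (-6.20), Mest paternal (0.0372) and old minus young (hippocampus maternal -2.39).

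For BL6 minus CAST mother over tissues, leaving out 1 mouse gave maternal -5.69 to 4.11. For area minus lung within mice, leaving out 1 mouse gave hippocampus paternal -5.57 to 2.89, hypothalamus maternal -1.17 to 5.60, hypothalamus paternal -1.52 to 3.00, nucleus accumbens maternal -1.32 to 5.04, nucleus accumbens paternal -6.18 to 2.60, prefrontal cortex maternal -4.16 to 3.14. For maternal minus paternal, leaving out 1 mouse gave hippocampus 60.3 to 71.1. For Snrpn minus another region, leaving out 1 mouse gave Commd1 paternal 7.14 to 10.3, Gnas maternal -13.1 to -9.02, H13 paternal 6.42 to 8.27, Impact paternal 6.38 to 9.55, Mest maternal -4.45 to 0.412, Mest paternal -3.99 to 0.456, Plagl1 maternal -19.5 to -13.7, Plagl1 paternal 7.42 to 12.0. For share of library calls, old minus young, leaving out 1 mouse gave hypothalamus -0.463 to 0.442, lung -0.166 to 0.810. For old minus young, leaving out 1 mouse gave cerebellum paternal 13.8 to 23.7, hippocampus maternal -2.39 to 34.3, hypothalamus paternal -6.70 to 4.49, lung paternal -9.91 to 4.44, nucleus accumbens paternal -19.7 to -10.6. For area minus lung in limma, leaving out 1 mouse gave hippocampus paternal -5.66 to 2.72, hypothalamus maternal -1.17 to 5.60, hypothalamus paternal -1.52 to 3.00, nucleus accumbens maternal -1.32 to 5.04, nucleus accumbens paternal -4.73 to 3.15, prefrontal cortex maternal -4.16 to 3.14. With mouse as a replicate block the maternal age difference in hypothalamus was 27.9 points (adjusted p = 0.0735 in limma), and the block changed no call. The CpG with the highest paternal level was left out as an alternative chosen after seeing the data. In nucleus accumbens no Snrpn CpG met the minimum of 20 calls in 2 old and 2 young mice.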
